A study of Homo sapiens with 12 samples.

Results

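Chemokines and the receptors that place B cells in lymphoid tissue were followed in 3 lymphoma cell lines treated with a BET bromodomain inhibitor, an IRAK inhibitor, or both. The 9 genes were chosen by name: the chemokines CCL3, CCL22, CCL17 and CCL5, the chemokine receptors CCR7, CXCR4 and CXCR5, and the lipid-ligand receptors GPR183 and S1PR1. The choice was made with earlier results of these data known. Each gene was read from its one-gene probe set with the highest mean over the 12 arrays. They are 9 of 18239 genes with such a probe set, and all 9 were among the 13120 genes that passed the filter on low values. The filter required a log2 level above 4.20, the 40th percentile of all values, on at least 3 arrays.

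The lines were OCI-LY3, OCI-HBL1 and OCI-LY10, established human lines of diffuse large B cell lymphoma of the activated B cell type, grown without stromal or T cells. Each line gave 1 array per treatment: Control, CPI203 (a BET bromodomain inhibitor, at 500 nM), IRAKi (an inhibitor of the IRAK kinases, at 50 µM) and Combo (both agents). IRAKi samples carry a label of 6 h and all others one of 24 h, while the treatment protocol states 18 h with CPI203 and 6 h with IRAKi. In every comparison with IRAKi arrays (against Control, CPI203 or Combo) the groups therefore differ in labelled time as well as in agent, and these cannot be told apart. The vehicle of the Control cells is not given in the sources used here. The 3 lines are the replicates of a treatment, so n = 3 for each treatment, and each p-value reflects the variation among these samples alone.

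Chemokines are small secreted proteins that form gradients, and cells follow them through receptors coupled to inhibitory G proteins. A B cell moves between the follicle, the germinal centre, the T cell zone and the circulation as it changes its set of these receptors. CXCR5 draws it to the follicle, CCR7 to the T cell zone, CXCR4 to the dark zone of the germinal centre and to bone marrow, GPR183 to oxysterols at the outer follicle, and S1PR1 to sphingosine 1-phosphate in blood and lymph. Activated B cells and B cell lymphomas secrete CCL3, CCL17 and CCL22, which attract T cells and myeloid cells. IRAK kinases carry Toll-like receptor signals through MYD88 to NF-kB, and BET proteins read acetylated histones at active promoters and enhancers.

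The promoter windows of the genes called in Combo against Control are shown as a description. Of those printed, CCL3 rose and CCL22, GPR183 and S1PR1 fell, and shared control of these genes was not tested. RefSeq entries (GRCh38.p14) matched 6 of the 9 genes, 4 of them called in that comparison. CCL17, CCL5 and CCR7 have no entry in the table. Each window holds the 250 bases before the most upstream listed start, 5′ to 3′ on the strand of the gene, and capitals mark the motif matches. CCL22 lies on the plus strand at chr16:57358533-57358782, CCL3 on the minus strand at chr17:36090144-36090393, GPR183 on the minus strand at chr13:99307400-99307649, and S1PR1 on the plus strand at chr1:101236769-101237018.
CCL22: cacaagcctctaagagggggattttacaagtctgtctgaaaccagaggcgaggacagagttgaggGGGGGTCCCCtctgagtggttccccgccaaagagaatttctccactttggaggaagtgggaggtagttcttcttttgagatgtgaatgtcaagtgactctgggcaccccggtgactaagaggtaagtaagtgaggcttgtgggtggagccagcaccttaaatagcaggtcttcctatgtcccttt
CCL3: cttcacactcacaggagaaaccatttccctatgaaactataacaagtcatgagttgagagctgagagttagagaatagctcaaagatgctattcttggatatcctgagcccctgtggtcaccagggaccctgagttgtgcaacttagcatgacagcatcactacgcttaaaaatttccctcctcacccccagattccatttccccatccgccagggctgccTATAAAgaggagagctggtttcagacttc
GPR183: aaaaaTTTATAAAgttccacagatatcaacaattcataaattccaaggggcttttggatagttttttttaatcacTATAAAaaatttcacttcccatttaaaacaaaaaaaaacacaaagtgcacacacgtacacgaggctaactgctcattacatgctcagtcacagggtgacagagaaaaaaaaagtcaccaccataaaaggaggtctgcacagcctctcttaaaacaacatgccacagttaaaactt
S1PR1: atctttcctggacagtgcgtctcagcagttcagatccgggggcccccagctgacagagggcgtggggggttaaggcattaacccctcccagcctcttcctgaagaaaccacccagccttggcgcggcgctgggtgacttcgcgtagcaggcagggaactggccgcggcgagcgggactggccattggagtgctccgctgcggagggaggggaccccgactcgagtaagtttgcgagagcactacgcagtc
The search used the NF-kB consensus and the TATA box letters TATAAA, each on both strands. The CCL22 window held the 1 match to the NF-kB consensus among the 6 genes, GGGGGTCCCC, from 185 to 176 bases before the start. Of 35116 promoter windows of the same length, 5.21% held such a match. TATAAA was found in 3 of the 6 windows (CCL3, GPR183 and CXCR4), against 10.7% of all windows. In CCL3 it lay from 29 to 24 bases before the start. In GPR183 the matches lay far from the start, at 243 to 238 and 175 to 170 bases, and the first overlapped a match on the other strand. A match is a description of letters, not of a site in use.

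The arrays had medians between 4.64 and 4.73 and correlated pairwise at 0.923 to 0.991. All 5 B cell markers with a probe set (MS4A1, CD79A, CD79B, PAX5 and CD22) and all 5 markers of the activated B cell subtype (IRF4, PIM1, BATF, FOXP1 and CCND2) lay above the filter level on all 12 arrays. Markers of T or NK cells reached at most 5.44 and those of monocytes or macrophages at most 5.06, and 4 of these 12 markers (CD3D, CSF1R, FCGR1A and S100A8) lay below the filter level on every array. The others were above it on 1 to 12 arrays, with GNLY and CD68 on all 12, CD3G on 8 and NKG7 on 4. The dendritic cell marker CD1C, which B cells also make, lay between 5.99 and 9.81, while FCER1A was below the filter level throughout, CLEC10A was above it on 2 arrays and LAMP3 on 4, up to 5.41. Among stromal and endothelial markers, DCN was below it throughout, COL1A1 and COL1A2 were above it on 1 array each, VWF on 8 and PECAM1 on 9, up to 7.39. Their part in the results was not tested. Non-specific control probe sets averaged 4.00 on the OCI-LY10 IRAKi array and 3.64 to 3.79 on the others. Added poly-A control transcripts were higher after treatment, by 0.31 ± 0.17 in CPI203, 0.23 ± 0.039 in IRAKi and 0.48 ± 0.26 in Combo (log2, SD, n = 3). Scaling the arrays to them moves the median gene to -0.30, -0.23 and -0.49 against Control, so all changes here are relative to the median gene.

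Combo moved most of these genes, in both directions. Against Control, 7 of the 9 were called by limma (adjusted p below 0.05 over all genes tested), 3 risen and 4 fallen. Over all tested genes 32.1% were called in this comparison, 15.4% risen and 16.7% fallen. As the 9 genes were chosen with earlier results of these data known, their count is not an independent test of the set. CCL3, CCL5 and CCR7 rose, and CCL22, CCL17, GPR183 and S1PR1 fell. Leaving out OCI-LY3, OCI-HBL1 or OCI-LY10 cut the calls to 3, 3 and 2 of the 9. In those fits 2072, 3420 and 2232 of 13120 genes were called. CPI203 alone gave 1 call, the fall of CCL22, where 13.1% of all genes were called and 6.21% fell. IRAKi alone gave 0 of 9 by limma, against 0.168% of all genes. At an unadjusted p under 0.05 there were 3 of the 9, beside 2018 of 13120 genes. With trend and robust estimation IRAKi also gave 0 of 9 calls, against 220 of 13120 genes. These 3 comparisons share the Control arrays. With the arrays scaled to the poly-A transcripts, the Combo calls were 1 risen and 4 fallen, because CCL5 (log2 change 0.42, adjusted p = 0.20) and CCR7 (0.31, adjusted p = 0.36) were no longer called. Under the same scaling CPI203 had 4 calls, all fallen, with CCL17 (-1.92), GPR183 (-1.17) and S1PR1 (-1.35) added to CCL22. In bulk RNA, fewer cells expressing a gene and less RNA per cell cannot be told apart.

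**Figure D1:**
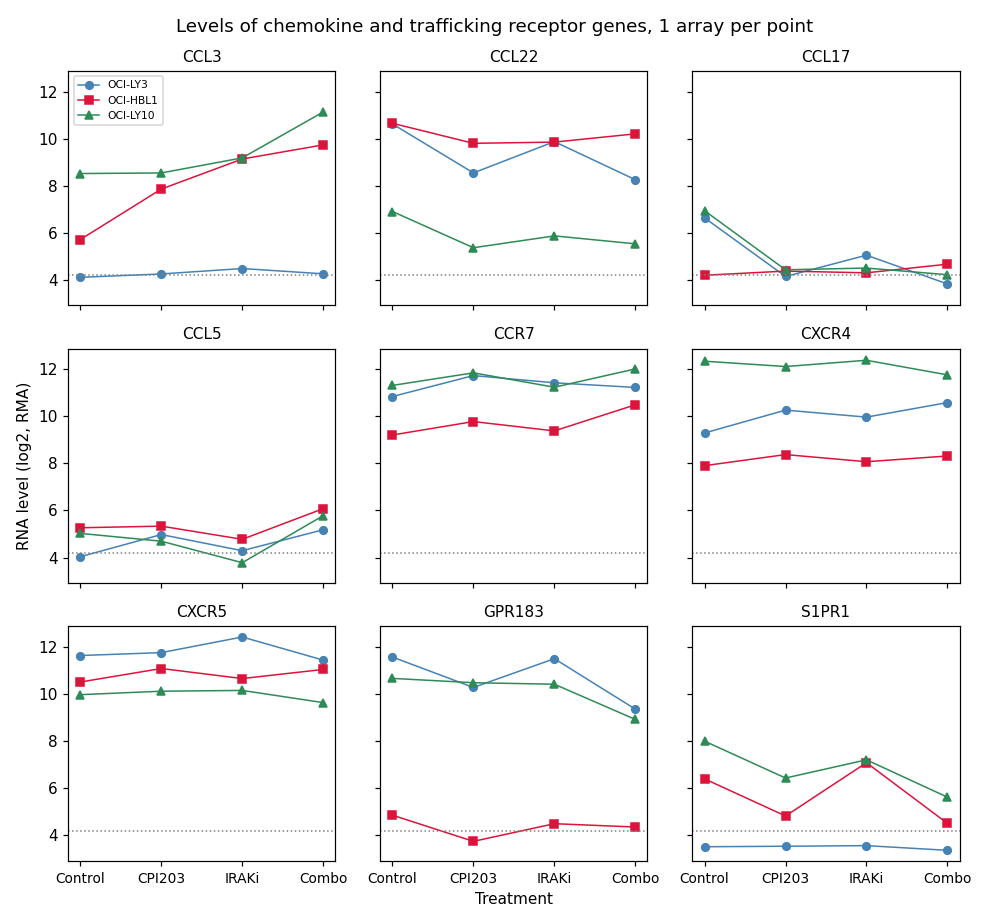
Log2 level (RMA) of each of the 9 genes under the 4 treatments, with 1 point per array, the points of a cell line joined and coloured alike, and a dotted line at the filter level of 4.20. Line differences are wide for GPR183 and CXCR4, and CCL17 is at 6.63 or more only in the Control arrays of OCI-LY3 and OCI-LY10.

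CCL22, a ligand of CCR4 that attracts regulatory T cells, was at 10.63, 8.54, 9.88 and 8.26 in OCI-LY3 under Control, CPI203, IRAKi and Combo (log2 levels, in this order throughout). In OCI-HBL1 it was at 10.65, 9.80, 9.85 and 10.21, and in OCI-LY10 at 6.90, 5.36, 5.86 and 5.53. Every treated array was below the Control array of its line, although the treatment groups overlap because OCI-LY10 is low. CCL22 fell by 1.49 ± 0.33 in CPI203 (log2, SE, adjusted p = 0.019), a 2.81-fold lower level, and by 1.40 ± 0.33 in Combo (adjusted p = 0.0096). The IRAKi change was -0.86 ± 0.33 (adjusted p = 0.26). Combo and CPI203 differed by 0.093, with a 95% confidence interval of -0.64 to 0.83. Both calls were lost with OCI-LY3 left out (Combo -0.91, adjusted p = 0.051, and CPI203 -1.20, adjusted p = 0.068) and with OCI-LY10 left out (-1.41, adjusted p = 0.085, and -1.47, adjusted p = 0.15). A second CCL22 probe set, with a mean of 5.45, gave -0.38 in Combo (adjusted p = 0.17) and -0.60 in CPI203 (adjusted p = 0.073).

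CCL17, the other ligand of CCR4, was at 6.63, 4.14, 5.04 and 3.82 in OCI-LY3 and at 6.93, 4.42, 4.50 and 4.21 in OCI-LY10. In OCI-HBL1 it stayed between 4.19 and 4.66. The 2 Control arrays of OCI-LY3 and OCI-LY10 were thus the highest of the 12, and the others lay between 3.82 and 5.04, around the filter level, which limits how far a fall can be measured. CCL17 fell by 1.69 ± 0.55 in Combo (SE, adjusted p = 0.042), a 3.22-fold lower level. The changes in CPI203 (-1.61 ± 0.55, adjusted p = 0.085) and IRAKi (-1.31 ± 0.55, adjusted p = 0.30) did not pass. With OCI-HBL1 left out, the Combo change was -2.77 (adjusted p = 0.0021) and the CPI203 change -2.50 (adjusted p = 0.013). CCL17 was no longer called in Combo on leaving out OCI-LY3 (-1.13, adjusted p = 0.32) or OCI-LY10 (-1.17, adjusted p = 0.29), or with trend and robust estimation (adjusted p = 0.056).

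CCL3, an inflammatory chemokine that attracts monocytes and T cells, had its widest range in OCI-HBL1, at 5.71, 7.86, 9.14 and 9.74. In OCI-LY10 it was at 8.52, 8.54, 9.18 and 11.14. In OCI-LY3 all 4 arrays lay between 4.10 and 4.48, near the filter level. Combo was the highest array in OCI-HBL1 and OCI-LY10, by 4.02 and 2.62 over Control, while OCI-LY3 moved by 0.15. CCL3 rose by 2.26 ± 0.63 in Combo (SE, adjusted p = 0.022), a 4.80-fold higher level. The changes in IRAKi (1.49 ± 0.63, adjusted p = 0.30) and CPI203 (0.77 ± 0.63, adjusted p = 0.48) did not pass. Leaving out OCI-HBL1 (1.38, adjusted p = 0.15) or OCI-LY10 (2.09, adjusted p = 0.12) ended the Combo call, and in the fit of the other lines without OCI-LY3 the change was 3.32 (adjusted p = 0.016). The only CCL3 probe set is of a type whose probes can also bind near-identical sequences, such as the CCL3-like gene copies, so the gene assignment is uncertain.

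CCL5, a chemokine that attracts T cells and monocytes, was at 4.03, 4.98, 4.29 and 5.18 in OCI-LY3, at 5.27, 5.33, 4.77 and 6.08 in OCI-HBL1, and at 5.03, 4.69, 3.78 and 5.78 in OCI-LY10. The Combo array was the highest of its line in all 3 lines, and IRAKi was the lowest in OCI-HBL1 and OCI-LY10. CCL5 rose by 0.91 ± 0.25 in Combo against Control (SE, adjusted p = 0.021). CCL5 did not pass when OCI-LY3 was left out (0.78, adjusted p = 0.056), nor when OCI-HBL1 was (0.95, adjusted p = 0.11). The other CCL5 probe sets gave 0.32 (adjusted p = 0.25) and 0.64 (adjusted p = 0.056).

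**Figure D2:**
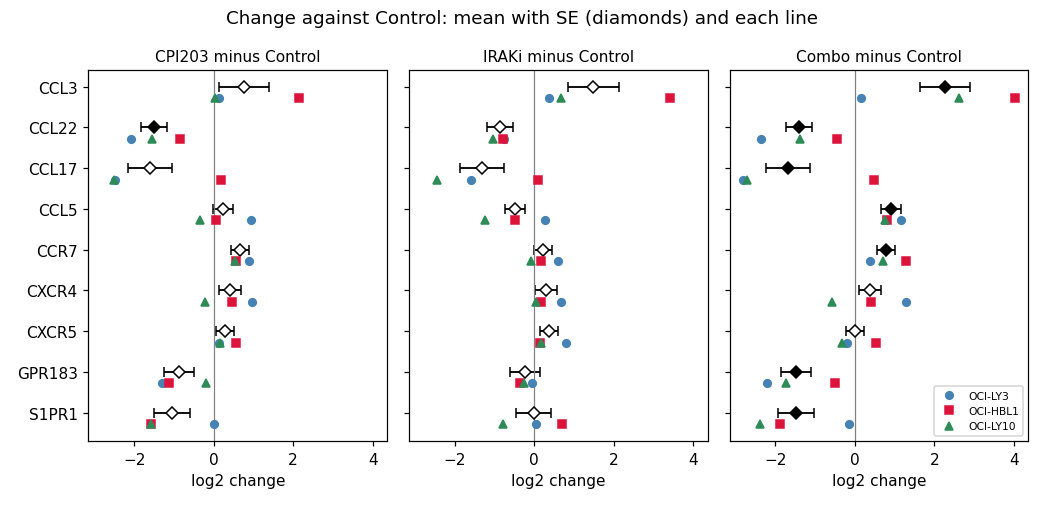
Log2 change against Control for the 9 genes in CPI203, IRAKi and Combo, with diamonds for the mean ± SE (filled where the adjusted p is below 0.05) and coloured points for each cell line. Combo has 7 filled diamonds, CPI203 has 1 (CCL22) and IRAKi none, and the lines spread widely for CCL3, CCL17 and S1PR1.

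Of the 3 chemokine receptors, CCR7 was called in Combo. CCR7, the receptor for CCL19 and CCL21, was at 10.85, 11.74, 11.43 and 11.23 in OCI-LY3, at 9.21, 9.78, 9.39 and 10.50 in OCI-HBL1, and at 11.32, 11.86, 11.24 and 12.02 in OCI-LY10. CPI203 and Combo arrays were above Control in every line. CCR7 rose by 0.79 ± 0.22 in Combo (SE, adjusted p = 0.023), a 1.73-fold higher level, and its CPI203 change was 0.67 ± 0.22 (adjusted p = 0.081). Leaving out OCI-HBL1 (0.54, adjusted p = 0.15) or OCI-LY10 (0.84, adjusted p = 0.11) ended the call.

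CXCR4, the receptor for CXCL12, was at 9.30, 10.27, 9.97 and 10.59 in OCI-LY3, at 7.91, 8.38, 8.07 and 8.32 in OCI-HBL1, and at 12.35, 12.12, 12.39 and 11.77 in OCI-LY10. Combo was above Control in OCI-LY3 and OCI-HBL1 and below it in OCI-LY10. The mean Combo change was 0.37 ± 0.28 (SE, adjusted p = 0.34, 95% confidence interval -0.25 to 0.99). Without OCI-LY10 the change was 0.85 and passed (adjusted p = 0.040), while it turned to -0.085 without OCI-LY3 and to -0.11 with poly-A scaling, neither of which passed. The 3 other CXCR4 probe sets correlated with the one used at 0.996 or more over the 12 arrays, as a description of probe sets that share a target.

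CXCR5, the receptor for CXCL13, was at 11.65, 11.77, 12.44 and 11.45 in OCI-LY3, at 10.52, 11.09, 10.67 and 11.05 in OCI-HBL1, and at 9.98, 10.13, 10.16 and 9.64 in OCI-LY10. No treatment comparison of CXCR5 was called. The Combo change was 0.00046 ± 0.23 (SE), and its 95% confidence interval was -0.51 to 0.51, so changes within that range remain compatible with these arrays. With poly-A scaling the change was -0.48 (adjusted p = 0.14).

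GPR183 and S1PR1, the 2 receptors for lipid ligands, both fell in Combo. GPR183 was at 11.58, 10.29, 11.51 and 9.37 in OCI-LY3 and at 10.67, 10.49, 10.43 and 8.93 in OCI-LY10. In OCI-HBL1 it was at 4.85, 3.74, 4.49 and 4.35, around the filter level. The Combo array was the lowest in OCI-LY3 and OCI-LY10. GPR183 fell by 1.49 ± 0.38 (SE, adjusted p = 0.014), a 2.80-fold lower level. Its CPI203 change was -0.86 ± 0.38 (adjusted p = 0.17) and its IRAKi change -0.23 ± 0.38 (adjusted p = 0.83). GPR183 did not pass in Combo when OCI-LY3 (-1.12, adjusted p = 0.15) or OCI-LY10 (-1.36, adjusted p = 0.079) was left out, and leaving out OCI-HBL1 gave -1.98 (adjusted p = 0.0069).

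S1PR1 was at 6.40, 4.82, 7.09 and 4.51 in OCI-HBL1 and at 8.003, 6.44, 7.21 and 5.62 in OCI-LY10. In OCI-LY3 it lay between 3.36 and 3.56, below the filter level on all 4 arrays. CPI203 and Combo arrays were the lowest in both lines in which S1PR1 was above that level. S1PR1 fell by 1.48 ± 0.45 in Combo (SE, adjusted p = 0.031), a 2.78-fold lower level, with single-line changes of -1.89 in OCI-HBL1 and -2.38 in OCI-LY10. The CPI203 change was -1.04 ± 0.45 (adjusted p = 0.16) and the IRAKi change -0.020 ± 0.45 (adjusted p = 0.99). S1PR1 did not pass in Combo when OCI-HBL1 (-1.27, adjusted p = 0.11) or OCI-LY10 (-1.02, adjusted p = 0.26) was left out, and leaving out OCI-LY3 gave -2.14 (adjusted p = 0.015). Of the other S1PR1 probe sets, one also passed in Combo (-1.17) and one did not (-0.82, adjusted p = 0.061).

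**Figure D3:**
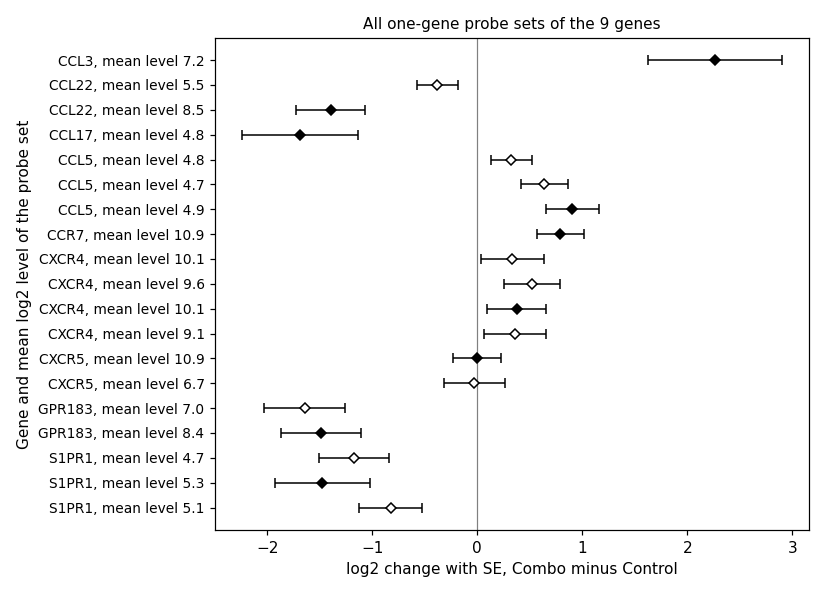
Combo minus Control log2 change ± SE for all 19 one-gene probe sets of the 9 genes, with filled markers for the probe set used. Probe sets of CXCR4, CXCR5 and GPR183 lie close together, while the second CCL22 probe set (-0.38) lies far from the one used (-1.40).

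The combination was also set against each agent. Against IRAKi, 3 of the 9 genes were called, 1 risen and 2 fallen, where 18.7% of all genes were called, 8.21% risen and 10.5% fallen. CCL5 rose by 1.40 ± 0.25 (SE, adjusted p = 0.0056), higher in 3 of 3 lines. GPR183 fell by 1.26 ± 0.38 (adjusted p = 0.044) and S1PR1 by 1.46 ± 0.45 (adjusted p = 0.0497). For GPR183 the single-line changes were -2.15 in OCI-LY3, -1.50 in OCI-LY10 and -0.14 in OCI-HBL1, where it lay around the filter level. For S1PR1 they were -2.58 in OCI-HBL1, -1.59 in OCI-LY10 and -0.20 in OCI-LY3, where it lay below that level. GPR183 and S1PR1 were not called without the OCI-LY10 IRAKi array (-1.34, adjusted p = 0.094, and -1.60, adjusted p = 0.091). Nor were they without OCI-LY10 altogether (-1.14, adjusted p = 0.18, and -1.39, adjusted p = 0.20). GPR183 was also lost without OCI-LY3 (-0.82, adjusted p = 0.32) and with trend and robust estimation (adjusted p = 0.053). S1PR1 did not pass on leaving out OCI-HBL1 (-0.89, adjusted p = 0.27) or with no filter on low values (adjusted p = 0.054), and CCL5 was lost without OCI-HBL1 (1.45, adjusted p = 0.052). CCL5 was also lost with another of its probe sets (0.58, adjusted p = 0.070), while the remaining one gave 0.93. On the OCI-LY10 IRAKi array, which had the highest non-specific control level, CCL5 was at 3.78, below the filter level. CCR7 was called without OCI-LY3 (0.94, adjusted p = 0.049).

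Against CPI203, Combo gave 0 of 9 calls by limma, where 4.66% of all genes were called. At an unadjusted p under 0.05 there were 2 of the 9 (CCL3 at 1.49 ± 0.63 and CCL5 at 0.68 ± 0.25, SE), beside 2723 of 13120 genes. CPI203 against IRAKi also gave 0 of 9, where 5.74% of all genes were called. There too 2 of the 9 had an unadjusted p under 0.05, beside 2934 of 13120 genes. The interaction term asks whether the Combo change differs from the sum of the single-agent changes. As the term includes the IRAKi arrays, labelled 6 h beside 24 h for the others, it cannot tell such a difference apart from labelled time. It gave 0 of 9, where 0.00762% of all genes (1 gene) were called. At an unadjusted p under 0.05 there was 1 of the 9, beside 1085 of 13120 genes. That 1 was CCL5, with a term of 1.17 ± 0.35 (SE, adjusted p = 0.46). The 3 counts of calls were also 0 with trend and robust estimation, where 954, 1119 and 1 of 13120 genes were called.

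Cell line accounted for more of the spread than treatment in 7 of the 9 genes. Its share of the sum of squares over the 12 arrays was 74.7% for S1PR1, 79.8% for CCL3, 81.8% for CCR7, 87.7% for CCL22 and CXCR5, 94.3% for GPR183 and 96.1% for CXCR4. The exceptions were CCL5 and CCL17, in which treatment took 60.6% and 51.5%, and cell line 23.6% and 8.67%. These shares were computed for the 9 genes only, so whether they differ from those of other genes was not tested. Each line mean below is over the 4 arrays of a line, which differ in treatment. These 4 arrays are not replicates of the same condition, so p-values between lines measure the spread of these arrays only.

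OCI-LY3 differed from OCI-HBL1 in 8 of 9 genes (4 higher, 4 lower), where 47.2% of all genes were called, 25.1% higher and 22.2% lower, and the arrays of the lines did not overlap for 6 of the 9, against 34.2% of all genes. OCI-LY10 differed from OCI-HBL1 in 6 of 9 (4 higher, 2 lower), where 48.5% of all genes were called, 22.8% higher and 25.8% lower, with 5 of the 9 not overlapping, against 34.4% of all genes. OCI-LY3 differed from OCI-LY10 in 5 of 9 (2 higher, 3 lower), where 46.6% of all genes were called, 26% higher and 20.6% lower, and 5 of the 9 did not overlap, against 30.3% of all genes. GPR183 showed the widest gap, with 10.69 in OCI-LY3, 10.13 in OCI-LY10 and 4.36 in OCI-HBL1 (means, n = 4). OCI-LY3 was above OCI-HBL1 by 6.33 ± 0.33 (SE, adjusted p = 3.3e-07), while OCI-LY3 and OCI-LY10 did not differ beyond their spread (0.56 ± 0.33, adjusted p = 0.19). S1PR1 ran in another order, with 6.82 in OCI-LY10, 5.70 in OCI-HBL1 and 3.49 in OCI-LY3. Its OCI-LY3 arrays were below both other lines without overlap, with a difference of -3.33 ± 0.39 from OCI-LY10 (SE, adjusted p = 8.8e-05).

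CXCR4 was highest in OCI-LY10 (12.16), then OCI-LY3 (10.03), then OCI-HBL1 (8.17), and no array of one line overlapped another. CXCR5 was highest in OCI-LY3 (11.83), then OCI-HBL1 (10.83), then OCI-LY10 (9.98), also without overlap. CCR7 was lowest in OCI-HBL1 (9.72), and OCI-LY10 (11.61) and OCI-LY3 (11.31) did not differ beyond their spread (adjusted p = 0.24). CCL22 was lowest in OCI-LY10 (5.91), at 9.33 in OCI-LY3 and 10.13 in OCI-HBL1. The difference between the upper lines was -0.80 ± 0.28 (SE, adjusted p = 0.040). CCL3 was lowest in OCI-LY3 (4.27), and OCI-LY10 (9.34) and OCI-HBL1 (8.11) did not differ beyond their spread (adjusted p = 0.090). CCL5 was lower in OCI-LY3 than in OCI-HBL1 by 0.74 ± 0.22 (SE, adjusted p = 0.017), with overlap. CCL17 was called in no pair of lines (adjusted p from 0.31 to 0.88), but its line means include treated arrays around the filter level. In Control alone CCL17 was at 6.63 in OCI-LY3 and 6.93 in OCI-LY10, against 4.19 in OCI-HBL1.

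Some of these line calls did not pass with fewer arrays or with another probe set. CCL22 in OCI-LY3 against OCI-HBL1 was not called without the CPI203 arrays (-0.65, adjusted p = 0.19), without the Combo arrays (-0.42, adjusted p = 0.20) or without the OCI-LY10 IRAKi array (adjusted p = 0.051). CCL5 in the same pair was not called without the Control arrays (-0.58, adjusted p = 0.053) or the Combo arrays (-0.69, adjusted p = 0.068). In OCI-LY10 against OCI-HBL1, S1PR1 (1.11 ± 0.39, SE, adjusted p = 0.038) was not called without the Control (0.95, adjusted p = 0.10), CPI203 (0.95, adjusted p = 0.14) or Combo arrays (1.11, adjusted p = 0.058), or without the OCI-LY10 IRAKi array (1.22, adjusted p = 0.053). CCL5 in that pair (-0.54, adjusted p = 0.063) was called without the Control arrays (-0.64, adjusted p = 0.035) and with poly-A scaling (-0.84, adjusted p = 0.0073). The second CCL22 probe set showed no line difference: 0.0034 for OCI-LY3 against OCI-HBL1 (adjusted p = 0.99), -0.20 for OCI-LY10 against OCI-HBL1 (adjusted p = 0.36) and 0.20 for OCI-LY3 against OCI-LY10 (adjusted p = 0.36). Neither other CCL5 probe set passed for OCI-LY3 against OCI-HBL1 (-0.31, adjusted p = 0.17, and -0.46, adjusted p = 0.082). For S1PR1 in OCI-LY10 against OCI-HBL1, one other probe set did not pass (0.31, adjusted p = 0.36), and the remaining one gave 0.85.

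The genes around these 9 in the pathway were counted in Combo against Control, beside 32.1% called and a median change of -0.0031 over all genes. These lists too were chosen with earlier results of these data known. Of 38 other chemokines, 34 had a probe set and 8 were tested, of which 2 fell and none rose (median -0.63). CXCL10, an interferon-induced ligand of CXCR3, dropped from 11.36 to 5.73 in OCI-LY3 and from 12.08 to 5.41 in OCI-LY10, and was at 4.28 and 4.32 in OCI-HBL1. It fell by 4.08 ± 1.04 (SE, adjusted p = 0.014). CX3CL1, a membrane-bound chemokine, fell by 1.69 ± 0.42 (adjusted p = 0.013). Of 20 other chemokine receptors, 6 were tested and 1 fell (median -0.37), CCR10, by 1.17 ± 0.34 (adjusted p = 0.026).

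Of 18 genes for sphingosine 1-phosphate and oxysterol ligands and receptors, 10 were tested, of which 2 rose and 1 fell (median -0.11). SGPP1, a phosphatase of sphingosine 1-phosphate, rose by 0.76 ± 0.19 (SE, adjusted p = 0.012). KLF2, a transcription factor known to drive S1PR1 in lymphocytes, rose by 0.61 ± 0.15 (adjusted p = 0.012). With poly-A scaling neither passed, SGPP1 at 0.27 (adjusted p = 0.29) and KLF2 at 0.13 (adjusted p = 0.64). S1PR2, which confines B cells to the germinal centre, fell by 0.54 ± 0.18 (adjusted p = 0.043). CD69, which removes S1PR1 from the cell surface, changed by 0.91 ± 0.54 and did not pass (adjusted p = 0.23).

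Of 34 genes of G protein signalling below these receptors, 30 were tested, of which 3 rose and 9 fell (median -0.18). RGS2, a brake on G proteins, rose by 1.60 ± 0.30 (SE, adjusted p = 0.0032), and the G protein subunit GNAI2 rose by 0.56 ± 0.14 (adjusted p = 0.014). The adhesion GTPase RAP1B rose by 0.46 ± 0.12 (adjusted p = 0.014), but turned to -0.020 with poly-A scaling, under which GNAI2 was at 0.076 (adjusted p = 0.78) and RGS2 still rose (1.11). RGS19, another brake, fell by 1.48 ± 0.15 (adjusted p = 0.00020), and GRK3, a receptor kinase, by 1.40 ± 0.18 (adjusted p = 0.00048). RGS13 fell by 1.19 ± 0.28 (adjusted p = 0.010) and DOCK8, an activator of CDC42 needed for leukocyte migration, by 1.14 ± 0.17 (adjusted p = 0.0011).

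Of 20 adhesion and homing genes, 19 were tested, of which 1 rose and 6 fell (median -0.38). The integrin chain ITGB1 rose by 0.74 ± 0.16 (SE, adjusted p = 0.0063), but was at 0.25 with poly-A scaling (adjusted p = 0.37). ICAM1, a ligand of the integrin LFA-1, fell by 1.86 ± 0.24 (adjusted p = 0.00052), and ICAM2 by 1.81 ± 0.27 (adjusted p = 0.0011). The integrin chains ITGAX and ITGB7 fell by 1.07 ± 0.34 (adjusted p = 0.038) and 0.92 ± 0.25 (adjusted p = 0.019).

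With poly-A scaling the risen and fallen counts became 0 and 6 for the other chemokines, 0 and 4 for the other receptors, 0 and 5 for the lipid-ligand genes, 1 and 18 for G protein signalling and 0 and 13 for adhesion. RGS19, GRK3, DOCK8, ICAM1 and ICAM2 were called with each line left out in turn. CX3CL1 (-1.60, adjusted p = 0.11), RGS13 (-1.14, adjusted p = 0.089) and KLF2 (0.44, adjusted p = 0.096) were lost without OCI-HBL1, and also without OCI-LY10 (in the same order, -1.20, -0.78 and 0.62, with adjusted p of 0.096, 0.072 and 0.086). Another 7 genes were lost both without OCI-LY3 and without OCI-LY10, and were called without OCI-HBL1. CXCL10 was at -3.31 (adjusted p = 0.15) and -2.79 (0.16) in those fits, and at -6.15 without OCI-HBL1 (adjusted p = 0.0020). ITGAX was at -0.82 (adjusted p = 0.29) and -0.65 (0.32), and at -1.73 without OCI-HBL1 (adjusted p = 0.0020). CCR10 was at -0.92 (adjusted p = 0.15) and -0.96 (0.14), against -1.64 without OCI-HBL1. RGS2 was at 1.195 (adjusted p = 0.063) and 1.41 (0.063), against 2.19 without OCI-HBL1. SGPP1 was at 0.58 (adjusted p = 0.13) and 0.66 (0.13), RAP1B at 0.36 (0.16) and 0.43 (0.13), and ITGB7 at -0.70 (0.19) and -0.75 (0.11), against 1.03, 0.60 and -1.32 without OCI-HBL1. ITGB1 did not pass when OCI-LY3 (0.62, adjusted p = 0.068) or OCI-HBL1 (0.65, adjusted p = 0.052) was left out. S1PR2 (-0.67 to -0.31, adjusted p from 0.055 to 0.28) and GNAI2 (0.49 to 0.65, adjusted p from 0.052 to 0.11) were lost without any one line.

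**Figure D4:**
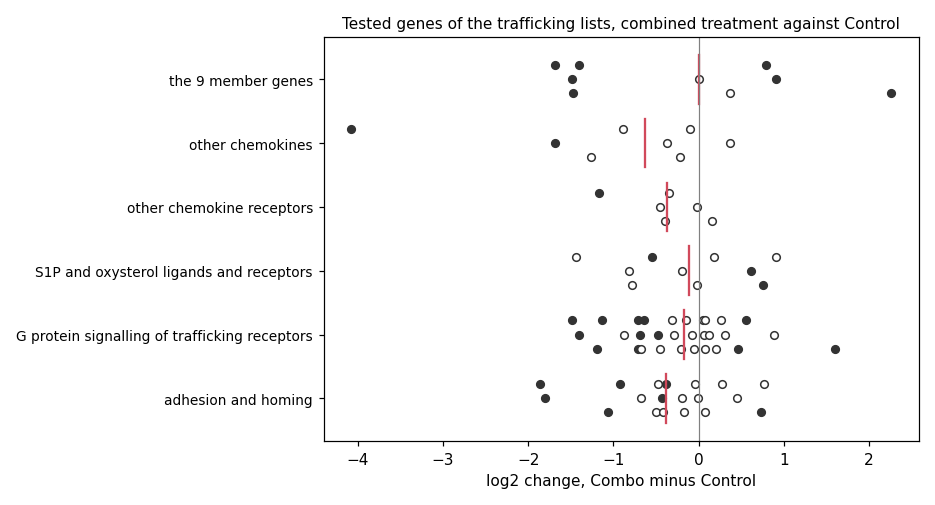
Combo minus Control log2 change of each tested gene among the 9 genes and the 5 pathway lists, filled where the adjusted p is below 0.05, with a red bar at the median of each list. The list medians lie between -0.63 and -0.11, and CXCL10 lies lowest at -4.08.

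The genes whose pattern was most like each of the 9 were found over the 12 arrays after each line's mean was taken off, as a description across treatments. For the falling genes, Pearson's r was 0.977 between CCL22 and VARS1, 0.970 between CCL17 and TCL1A, 0.990 between GPR183 and VPS25, and 0.959 between S1PR1 and RILPL2. For the rising genes it was 0.961 between CCL3 and ACAD10, 0.941 between CCL5 and HS6ST1, and 0.956 between CCR7 and RER1. For the receptors with no call in Combo it was 0.904 between CXCR4 and ZNF823 and 0.918 between CXCR5 and MAFIP. Each value is the highest over all genes tested, so a high r follows in part from that choice. The next most alike gene was APOL1 for CCL22 (0.971), P2RY6 for CCL17 (0.962), HNRNPF for GPR183 (0.987), DCP1B for S1PR1 (0.958), PFDN5 for CCL3 (0.915), UBXN10 for CCL5 (0.935), STX5 for CCR7 (0.947), MAP3K1 for CXCR4 (0.897) and CLDN1 for CXCR5 (0.872).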

How the data were processed

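Expression was measured on 12 Affymetrix arrays of 49386 probe sets. The authors deposited log2 values after RMA in Affymetrix Expression Console 1.1, per the submitters' processing notes; the probe library version is not given in the sources used here. RMA equalises the arrays, so a change shared by most genes would not show. Of the probe sets, 45253 name 1 gene, 1327 name several (not used), and 99.8% of symbols matched current ones by gene ID. Per gene, the probe set with the highest mean was kept.

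Treatment and cell line were fitted together on all 12 arrays with limma 3.58.1 in R 4.3.3, with Benjamini-Hochberg adjustment over 13120 genes and calls at 0.05. Cell line is the replicate block: the 18 pairs of arrays of 1 line deviated together (correlations 0.819 to 0.907). There were 6 residual degrees of freedom, and the number of arrays limits the precision. The script was tested on simulated data. The 9 genes and the pathway and marker lists were chosen with earlier results of these data known. Named from each list were the genes called in Combo against Control, at most 4 a direction by size, and for each of the 9 genes the 2 most alike. CD69 was named after its value was seen. Alternatives covered probe sets, filters, scaling, estimation, the block and left-out arrays.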

Additional observations from a re-analysis of the deposited data

Results flagged for a closer look

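Some genes moved in opposite directions in different lines, by at least 0.5 on the log2 scale each, with 1 array pair per line, so the differences between lines were not tested. In Combo against Control, CXCR4 was higher by 1.29 in OCI-LY3 and changed by -0.58 in OCI-LY10. Against IRAKi, CXCR4 in Combo was higher by 0.62 in OCI-LY3 and changed by -0.62 in OCI-LY10. In IRAKi against Control, S1PR1 was higher by 0.69 in OCI-HBL1 and changed by -0.79 in OCI-LY10, whose IRAKi array had the highest non-specific control level. In Combo against CPI203, CCR7 was higher by 0.71 in OCI-HBL1 and changed by -0.51 in OCI-LY3. In the same comparison GPR183 was higher by 0.61 in OCI-HBL1, where it lay around the filter level, and changed by -1.56 in OCI-LY10.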

How the results depend on the processing

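Of 955 single-gene values under an alternative, 838 kept their direction and their side of the threshold, 71 lost a call, 11 gained one and the others changed sign. In Combo against Control alone, 75 kept both, 33 lost a call, 1 gained one and 7 changed sign. IRAKi against Control and Combo against CPI203, which had 0 calls to lose, kept 110 and 109. Of all the values that changed sign, 1 was called as reported: CCL22 in OCI-LY3 against OCI-HBL1, at 0.0034 with its second probe set. The other 34 were called neither as reported nor after, and none had a reported size above 0.64. For CXCR5 in Combo against Control they were -0.021 (cyclic loess), -0.014 (mean of probe sets), -0.028 (other probe set) and -0.48 (poly-A scaling), and from -0.27 to 0.17 with a line left out. For S1PR1 in IRAKi against Control they were 0.020 (cyclic loess), 0.056 (mean of probe sets), 0.26 (other probe set) and 0.13 (without the OCI-LY10 IRAKi array), and from -0.37 to 0.37 with a line left out. Other probe sets gave 0.053 for CXCR4 in Combo against CPI203, 0.027 for CCL22 in Combo against IRAKi and -0.061 for CCL5 in CPI203 against Control. Poly-A scaling gave 0.045 for CCL17 in OCI-LY3 against OCI-LY10. In Combo against CPI203 it gave -0.084 for CCL22 and -0.053 for CCR7, and in CPI203 against Control -0.079 for CCL5 and -0.025 for CXCR5. It also gave -0.0018 for CCR7 in IRAKi against Control, and for CXCR4 -0.11 in Combo against Control and -0.17 against IRAKi. With a line left out, the values in Combo against CPI203 ran from -0.26 to 0.042 for CCL17, -0.061 to 0.28 for CCL22, -0.17 to 0.44 for CCR7 and -0.21 to 0.13 for CXCR4. In Combo against IRAKi they ran from -0.75 to 0.042 for CCL17, -0.98 to 0.0070 for CCL22 and -0.19 to 0.43 for CXCR4. CCL5 in CPI203 against Control ran from -0.13 to 0.51, and CXCR4 in Combo against Control from -0.085 to 0.85. With a treatment left out, CCL17 ran from -0.11 to 0.99 in OCI-LY3 and from -0.063 to 1.0 in OCI-LY10 against OCI-HBL1, and CCL5 from -0.44 to 0.065 in OCI-LY3 against OCI-LY10. The cause was not tested. With no replicate block, that is without cell line in the fit, 0 of the 9 genes were called in CPI203 against Control, Combo against Control and Combo against IRAKi, and the genes called in Combo against Control numbered 465 in place of 4214. With only the groups compared in the fit, which leaves fewer samples, the counts were 2, 2 and 1. With poly-A scaling CPI203 against Control had 4. With OCI-LY3, OCI-HBL1 or OCI-LY10 left out, the counts for CPI203 against Control were 0, 2 and 0. They were 3, 3 and 2 for Combo against Control, and 3, 1 and 1 for Combo against IRAKi. Without the OCI-LY10 IRAKi array the counts were 1, 7 and 1, but that array is in Combo against IRAKi only. With 1 treatment or that array left out, OCI-LY3 against OCI-HBL1 ranged from 6 to 8 and OCI-LY10 against OCI-HBL1 from 5 to 6. With the stricter filter CCL17 and CCL5 gave no value. Levels near the filter, as for CCL17, CCL5 and S1PR1 in OCI-LY3, limit what a fall can show.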

Other observations

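The pathway genes also changed under CPI203 alone, where 13.1% of all genes were called. Of the other chemokines, 2 of 8 fell: CXCL9, an interferon-induced ligand of CXCR3, at -2.08 ± 0.46 (log2, SE, limma adjusted p = 0.020), and CX3CL1 at -1.77 ± 0.42 (adjusted p = 0.025). P2RY8, a receptor that confines B cells to the germinal centre, fell by 1.78 ± 0.50 (adjusted p = 0.044), from 8.57 to 4.72 in OCI-LY10, 9.27 to 8.69 in OCI-LY3 and 8.77 to 7.86 in OCI-HBL1. Among the G protein signalling genes 2 of 30 rose and 2 fell, with RGS2 up by 1.18 ± 0.30 (adjusted p = 0.032) and DOCK8 down, at -1.04 ± 0.17 (adjusted p = 0.0068). Among the adhesion genes 1 of 19 rose (ITGB1, 0.67 ± 0.16, adjusted p = 0.024) and 4 fell, among them the LFA-1 chain ITGAL (-1.32 ± 0.31, adjusted p = 0.024) and ICAM1 (-0.86 ± 0.24, adjusted p = 0.044). These genes were named after their values were seen. With OCI-LY3 left out, 1 chemokine fell and no gene of the lipid-ligand, G protein and adhesion lists was called. With OCI-LY10 left out, 1 G protein signalling gene fell and no gene of the other lists was called. With OCI-HBL1 left out, 2 chemokines, 2 G protein signalling genes and 2 adhesion genes fell, 1 G protein signalling gene and 1 lipid-ligand gene rose, and P2RY8 was not called.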
